A study of Mus musculus with 9 samples.

Results

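Genes named as enzymes that add or remove acetyl and methyl groups, mainly on histones, were compared between lung endothelial cells of Tie1-CR and Tie1-WT mice. The members are the genes of the deposited table whose symbols start with Kdm, Kmt, Setd, Ehmt, Kat, Hdac or Sirt followed by a digit, without Hdac9. This rule gave 55 of the 9277 genes in the table. Sorted by symbol alone, they comprise 17 demethylases (Kdm), 15 methyltransferases (6 Kmt, 7 Setd and 2 Ehmt) and 7 acetyltransferases (Kat). The rest are 9 deacetylases (Hdac) and 7 sirtuins (Sirt). Not every product need have the activity of its class, or act on histones, and this was not checked. The Tie1-CR group (5 libraries) carries a form of the endothelial receptor Tie1 that resists proteolytic cleavage, and the Tie1-WT group (4 libraries) carries the wild type receptor. All 9 library names carry PBS, a buffer, so every sample shares it. The sources used here do not give the mice's age, strain or sex, how the endothelial cells were isolated, or a batch. They also do not say that each library is from a separate mouse, so that p-values measure only the spread of these libraries, which may be technical. Library names run in genotype order, and genotype cannot be told apart from any order of processing.

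Histone acetylation loosens chromatin and marks active genes. It is written by acetyltransferases (Kat) and removed by zinc-dependent deacetylases (Hdac) and by NAD-dependent sirtuins (Sirt). Lysine methylation is written by SET-domain methyltransferases and removed by Kdm enzymes, and its reading depends on the lysine: methylation of lysine 4 of histone H3 marks active promoters and enhancers, while methylation of lysine 9 marks silent chromatin. In endothelium, mouse studies tie Hdac7 to vessel integrity and Sirt1 to vessel growth and nitric oxide production. Several of these enzymes also act on proteins other than histones.

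All libraries held high levels of endothelial transcripts. Between 38208696 and 54408116 reads were counted per library, so that a gene at 10 CPM (read counts scaled to each library's total) rests on 382 to 544 reads and has a counting error of 4.29% to 5.12%, if reads are independent. Of 10 endothelial marker genes, 0 rose and 1 fell. Pecam1, Cdh5 and Kdr, chosen as widely used markers, averaged 2713, 1561 and 2612 CPM in Tie1-CR and 2592, 1500 and 2670 CPM in Tie1-WT. The marker that fell was Erg, an endothelial transcription factor, at 37.5 ± 1.77 CPM in Tie1-CR and 50.3 ± 3.61 CPM in Tie1-WT (SD, log2 difference -0.41, limma adjusted p = 0.00516). Eng, a TGF-beta co-receptor, averaged 2764 ± 184 CPM in Tie1-CR and 2401 ± 113 CPM in Tie1-WT (SD, limma adjusted p = 0.116). Tie1 itself was measured at 2433 ± 143 CPM in Tie1-CR (SD, n = 5) and 2136 ± 42.9 CPM in Tie1-WT (SD, n = 4), which does not check the allele. Its groups did not overlap, at 2329 to 2679 CPM in Tie1-CR and 2079 to 2171 CPM in Tie1-WT, but it did not pass (limma adjusted p = 0.107). Some markers of other lung cells passed the test. The 6 measured of 7 type 2 pneumocyte markers, of which 1 rose, summed to 436 to 789 CPM in Tie1-CR and 279 to 626 CPM in Tie1-WT. The 4 measured of 5 airway markers, of which 2 rose, summed to 48.0 to 81.4 CPM in Tie1-CR and 12.5 to 38.2 CPM in Tie1-WT. The airway sums did not overlap, and the type 2 sums did. Median log2 differences were 0.99 over the type 2 markers and 1.12 over the airway markers, with 6 of 6 and 4 of 4 above 0. At an unadjusted p under 0.05 (limma) there were 5 of the 6 type 2 markers and 3 of the 4 airway markers, beside 22.3% of all genes. The 2 measured of 8 leukocyte markers went opposite ways. Cd68 fell to 4.20 to 7.04 CPM in Tie1-CR, against 8.89 to 12.0 CPM in Tie1-WT (limma adjusted p = 0.0064), while Lyz2 averaged 76.2 ± 21.9 CPM in Tie1-CR and 37.8 ± 21.8 CPM in Tie1-WT (SD, limma adjusted p = 0.0669). The measured markers of type 1 pneumocytes (3 of 5), fibroblasts (2 of 5), mural cells (2 of 5) and platelets or red cells (3 of 5) held 0 calls (limma), and 0 at an unadjusted p under 0.05, with median log2 differences of -0.25, -0.14, -0.05 and 0.35 and sums that overlapped. Of 18 early genes of cell stimulation, such as Fos and Egr1, 12 passed the test and were lower in Tie1-CR, beside 2.77% of all genes. The early gene sums overlapped, at 12841 to 18152 CPM in Tie1-CR and 17639 to 27566 CPM in Tie1-WT. The part of these other transcripts in the results on histone-modifying enzymes was not tested. In bulk RNA, fewer cells of a type and less RNA per cell cannot be told apart.

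Of the 55 enzymes, 4 passed the test. Kdm6b, Sirt1 and Hdac1 fell in Tie1-CR, and Hdac10 rose. Each was tested with limma on log2(CPM + 1), as Tie1-CR minus Tie1-WT, with Benjamini-Hochberg adjustment over all 9277 genes and a threshold of 0.05. The share of members called was 7.27%, beside 4.05% of all genes tested. By direction, 1 member rose where 1.28% of all genes were called higher, and 3 fell where 2.77% of all genes were called lower. The median log2 difference was -0.01 over the members and -0.03 over all genes, with 24 members above 0 and 31 below, beside 41.5% of all genes above 0. Trimmed-mean scaling put 30 members above 0 and quantile normalization 31, and over all genes these gave 182 and 183 higher and 190 and 190 lower, against 119 higher and 257 lower as first scaled. The 51 members that did not pass had log2 differences between -0.19 and 0.20. At an unadjusted p under 0.05 (limma) there were 13 of 55 members, beside 22.3% of all genes. Groups did not overlap for 6 members, or 10.9%, a share close to that of all genes (972 of 9277, 10.5%). They were 3 higher in Tie1-CR, beside 3.74% of all genes, and 3 lower, beside 6.74% of all genes. With Tie1-WT replicate 1 left out 0 members passed (limma adjusted p = 0.0653 to 0.0795 for the 4 genes), and with Tie1-WT replicate 2 left out only Hdac1 did. Calls over all genes also dropped in these fits, to 0.647% without Tie1-WT replicate 1 and 1.46% without Tie1-WT replicate 2.

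**Figure D1:**
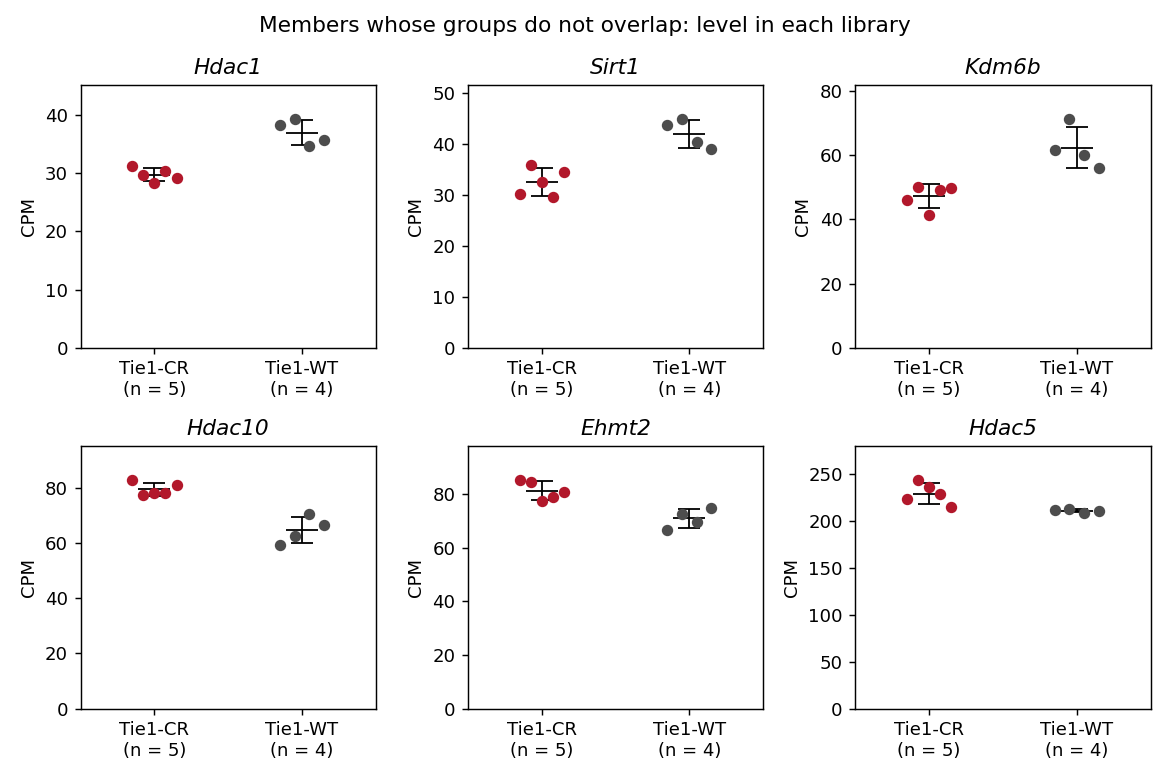
Level in CPM of the 6 members whose groups do not overlap, one point per library, with Tie1-CR (red, n = 5) left of Tie1-WT (grey, n = 4) and group means ± SD in black. Hdac1, Sirt1 and Kdm6b lie lower in every Tie1-CR library, and Hdac10, Ehmt2 and Hdac5 lie higher, though Ehmt2 and Hdac5 did not pass the adjusted test.

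Kdm6b, also called JMJD3, removes methyl groups from lysine 27 of histone H3 and is induced by inflammatory signals in mouse macrophages. It measured 46.0, 49.9, 41.2, 49.1 and 49.7 CPM in the Tie1-CR libraries, against 61.6, 71.2, 60.0 and 56.1 CPM in the Tie1-WT libraries. Every Tie1-CR value lay below every Tie1-WT value. The log2 difference was -0.39 (SE 0.08, limma adjusted p = 0.0213), or 1.31-fold lower. This was the largest log2 difference, in size, of the 55 members. Its close paralog Kdm6a (UTX), which acts on the same lysine, did not pass the test. Kdm6a averaged 74.5 ± 7.53 CPM in Tie1-CR and 77.3 ± 6.39 CPM in Tie1-WT (SD), with a 95% interval of -0.23 to 0.12 for the log2 difference. Kdm7a, which acts on methylated lysine 9 and lysine 27 of histone H3, averaged 36.9 ± 2.96 CPM in Tie1-CR and 41.2 ± 3.58 CPM in Tie1-WT (SD, log2 difference -0.15, limma adjusted p = 0.238). Kdm6b lies on chromosome 11 (69398508 to 69413675, minus strand, GRCm38), where 286 bases of its exons are shared with the antisense gene Kdm6bos, whose reads cannot be told apart without strand.

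Sirt1, an NAD-dependent deacetylase of histones and of transcription factors such as p53 and Foxo1, was the only sirtuin called. Its level was 30.1, 35.9, 32.6, 29.5 and 34.4 CPM in Tie1-CR, against 43.6, 44.8, 40.3 and 38.9 CPM in Tie1-WT. The groups did not overlap, and replicate 2 of Tie1-CR, the highest of its group, lay under replicate 4 of Tie1-WT, the lowest of its own. The log2 difference was -0.36 (SE 0.07, limma adjusted p = 0.0197), or 1.28-fold lower. Sirt1 lies on chromosome 10 (63319005 to 63381704, minus strand), and 65 bases of its exons are shared with the antisense gene Gm16145.

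Hdac1, a catalytic subunit of the NuRD, Sin3 and CoREST corepressors, fell by 0.30 on the log2 scale (SE 0.05, limma adjusted p = 0.0132), or 1.23-fold. The Tie1-CR libraries held 31.2, 29.7, 28.3, 30.4 and 29.2 CPM and the Tie1-WT libraries 38.2, 39.2, 34.7 and 35.6 CPM. The spread within Tie1-CR was small (SD 1.11 CPM), and the groups were apart. Hdac1 has processed pseudogenes, the closest being Gm10093 with 99.4% identity over 1444 bases, so its level is uncertain where reads are shared. It lies on chromosome 4 (129516104 to 129542713, minus strand), 11.0 Mb from Tie1. Kdm4a, the member nearest to Tie1 at 0.291 Mb, averaged 60.9 ± 5.09 CPM in Tie1-CR and 63.8 ± 2.56 CPM in Tie1-WT (SD, limma adjusted p = 0.558). On all of chromosome 4, 18 of 562 annotated genes were called (3.20%), beside 4.07% of all annotated genes.

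Hdac10, which removes acetyl groups from the polyamine spermidine and lies mainly in the cytoplasm, was the only member to rise. It measured 83.0, 77.6, 78.1, 78.2 and 81.2 CPM in Tie1-CR, against 59.4, 62.6, 70.6 and 66.6 CPM in Tie1-WT. All Tie1-CR libraries lay above all Tie1-WT libraries. The log2 difference was 0.30 (SE 0.05, limma adjusted p = 0.0158), or 1.23-fold. The gene is on chromosome 15 (89123307 to 89128700, minus strand), and its exons overlap no other annotated gene.

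Ehmt2 and Hdac5 had groups apart without passing. Ehmt2 (G9a), which methylates lysine 9 of histone H3, measured 85.3, 84.4, 77.6, 78.9 and 80.6 CPM in Tie1-CR, against 66.7, 72.8, 69.5 and 75.0 CPM in Tie1-WT (log2 difference 0.19, SE 0.05, limma adjusted p = 0.0549). It passed with trimmed-mean scaling, quantile normalization or library weights (adjusted p = 0.0363, 0.0378 and 0.0333). After correction for GC content and transcript length its difference was 0.08 (adjusted p = 0.377). Its partner Ehmt1 averaged 90.3 ± 2.26 CPM in Tie1-CR and 90.6 ± 3.93 CPM in Tie1-WT (SD). Hdac5 measured 223, 243, 236, 228 and 214 CPM in Tie1-CR, against 212, 212, 208 and 210 CPM in Tie1-WT (log2 difference 0.12, SE 0.05, limma adjusted p = 0.164). Its lowest Tie1-CR library was within 3 CPM of the highest Tie1-WT library.

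Promoter sequences are shown for Sirt1, Ehmt2 and Hdac5, the members with groups apart that have an entry in the RefSeq promoter table (GRCm38.p6). They show the letters around the listed starts beside the genes' values. For Sirt1, the listed start lies inside the GENCODE span given above (63319005 to 63381704, minus strand), not at its 5′ end. The Sirt1 window is thus not upstream of the gene as placed there. Of the 3, only Sirt1 passed the test. Each runs from 250 bases before the annotated start to 50 bases after it, 5′ to 3′ on the gene's strand, and for Ehmt2 the first of its 2 listed starts is used. Capitals mark matches, on either strand, to the GC box GGGCGG, the E-box CACGTG, the CRE half-site TGACG, the AP-1 site TGANTCA and the ETS core CGGAAG.
Sirt1, chr10:63338986-63339285, minus strand: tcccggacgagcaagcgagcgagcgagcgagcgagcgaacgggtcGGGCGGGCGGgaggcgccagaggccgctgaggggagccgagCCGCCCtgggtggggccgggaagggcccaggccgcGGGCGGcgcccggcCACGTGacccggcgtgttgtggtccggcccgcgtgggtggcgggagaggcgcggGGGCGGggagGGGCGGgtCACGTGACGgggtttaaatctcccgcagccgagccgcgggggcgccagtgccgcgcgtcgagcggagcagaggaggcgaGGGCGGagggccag
Ehmt2, chr17:34898224-34898523, plus strand: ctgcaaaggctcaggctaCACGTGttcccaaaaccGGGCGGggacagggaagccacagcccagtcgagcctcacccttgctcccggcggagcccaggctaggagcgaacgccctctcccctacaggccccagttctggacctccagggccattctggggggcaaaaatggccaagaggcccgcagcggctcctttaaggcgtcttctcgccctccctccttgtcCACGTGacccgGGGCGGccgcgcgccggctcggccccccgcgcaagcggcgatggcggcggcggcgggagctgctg
Hdac5, chr11:102230123-102230422, minus strand: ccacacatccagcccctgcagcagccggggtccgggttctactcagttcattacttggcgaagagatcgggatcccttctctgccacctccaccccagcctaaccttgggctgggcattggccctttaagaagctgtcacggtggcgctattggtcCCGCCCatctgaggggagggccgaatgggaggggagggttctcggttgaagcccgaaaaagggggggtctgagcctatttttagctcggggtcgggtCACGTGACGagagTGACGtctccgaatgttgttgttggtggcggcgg

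The sequences hold 47 CpG in Sirt1, 28 in Ehmt2 and 18 in Hdac5, beside a median of 22 over the promoters of 7159 tested genes and 20 over those of 43 members. Sirt1 and Ehmt2 thus lie above both medians and Hdac5 below both. The Sirt1 promoter holds 7 GC boxes, that of Ehmt2 holds 2 and that of Hdac5 holds 1, and a GC box is in 68.6% of the tested promoters. Each of the 3 holds an E-box, which 5 of the 43 member promoters (11.6%) and 10.7% of the tested promoters hold. In Sirt1 and in Hdac5 an E-box runs into a CRE half-site, so that the last bases of CACGTG are also the first of TGACG. No AP-1 site or ETS core is in these windows. The window at the second listed start of Ehmt2, not printed, holds 40 CpG, 4 GC boxes and 1 E-box, against 28 CpG, 2 GC boxes and 2 E-boxes at the first. These matches describe letters only.

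By structural class, the 4 class I deacetylases (Hdac1, Hdac2, Hdac3, Hdac8), mostly nuclear enzymes of corepressor complexes, all had log2 differences below 0, and the 3 class IIa genes (Hdac4, Hdac5, Hdac7), signal-responsive corepressors with little catalytic activity of their own, all lay above 0. Of these 7 genes, only Hdac1 passed the test. This grouping was chosen after the values were seen, was not tested, and changed with the scaling. Class I had 1 of 4 genes above 0 under trimmed-mean scaling, quantile normalization and the GC and length correction, and after that correction the class IIa median was 0.02, against 0.12 before it (Hdac4 0.04, Hdac5 0.02, Hdac7 0.02). The class I gene that turned was Hdac3, to a log2 difference of 0.00, just above 0, in each. The class I levels summed to 159 to 173 CPM in Tie1-CR and 183 to 189 CPM in Tie1-WT, and the class IIa levels to 1135 to 1292 CPM in Tie1-CR and 1098 to 1145 CPM in Tie1-WT. The class I sums did not overlap, and the class IIa sums did. These sums were not computed under the other scalings.

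Hdac2, the close paralog of Hdac1, measured 59.2, 49.3, 58.4, 48.2 and 62.3 CPM in Tie1-CR, against 63.1, 62.2, 64.0 and 63.8 CPM in Tie1-WT. Replicates 2 and 4 of Tie1-CR were the low ones, and replicate 5 reached the Tie1-WT values. The log2 difference of -0.19 (95% interval -0.36 to -0.03) did not pass (limma adjusted p = 0.155). Hdac3, the catalytic subunit of the NCoR and SMRT complexes, averaged 72.8 ± 2.73 CPM in Tie1-CR and 73.9 ± 3.70 CPM in Tie1-WT (SD). Hdac8, an X-linked class I enzyme that acts on cohesin, was the lowest deacetylase, at 8.27 to 11.3 CPM in Tie1-CR and 10.7 to 12.1 CPM in Tie1-WT.

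Hdac7 was the most abundant member. It measured 857, 981, 885, 959 and 905 CPM in Tie1-CR, against 837, 874, 828 and 842 CPM in Tie1-WT. Only Tie1-CR replicate 1 lay within the Tie1-WT range. The log2 difference of 0.12 (95% interval -0.004 to 0.24) did not pass (limma adjusted p = 0.239). Hdac4 averaged 60.9 ± 5.95 CPM in Tie1-CR and 57.4 ± 4.29 CPM in Tie1-WT, and Hdac6, a cytoplasmic tubulin deacetylase, 29.6 ± 1.88 CPM in Tie1-CR and 31.0 ± 2.97 CPM in Tie1-WT (SD). Over all 9 deacetylases, 1 rose, 1 fell and 7 did not pass, beside 1.28% of all genes called higher and 2.77% lower. Their median log2 difference was -0.02.

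**Figure D2:**
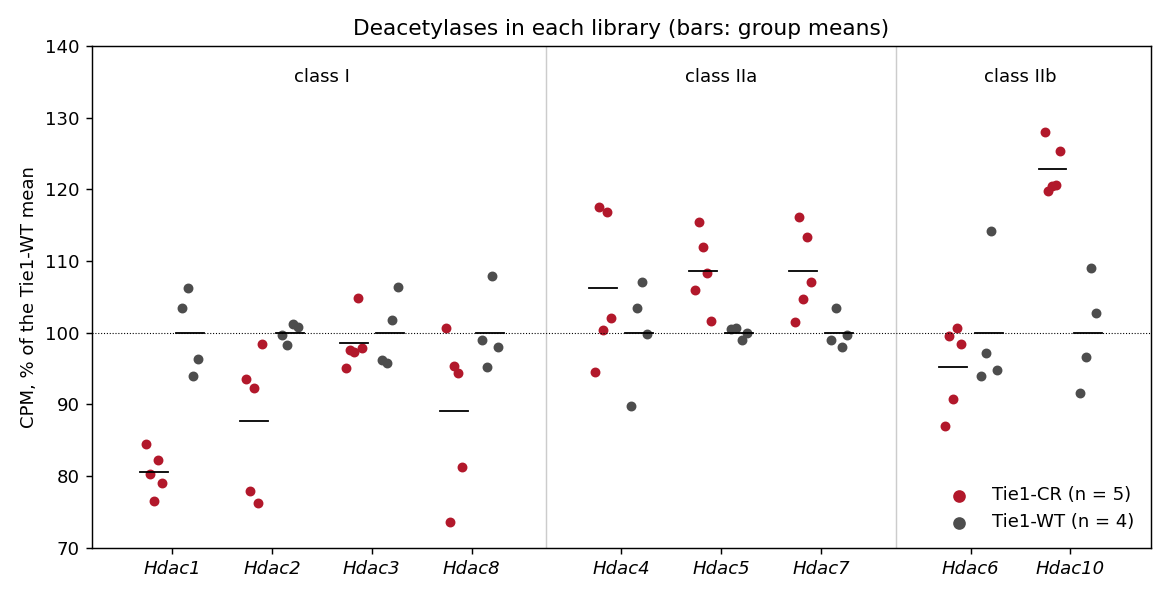
CPM of each deacetylase in each library as a percentage of that gene's Tie1-WT mean, with Tie1-CR (red, n = 5) left of Tie1-WT (grey, n = 4) and bars at the group means. The vertical axis starts at 70%. All class I means of Tie1-CR lie below 100% and all class IIa means above it as scaled here, and only Hdac1 and Hdac10 passed the adjusted test. Hdac3 turns to a log2 difference of 0.00 under trimmed-mean scaling, quantile normalization and the GC and length correction, and the class IIa median is 0.02 after that correction.

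Among the 7 sirtuins, 1 fell, 0 rose and 6 did not pass, beside 4.05% of all genes called. Their median log2 difference was 0.02. Sirt7, a nucleolar sirtuin linked to ribosomal gene transcription, measured 115, 129, 110, 120 and 121 CPM in Tie1-CR, against 105, 108, 106 and 112 CPM in Tie1-WT. Only Tie1-CR replicate 3 fell inside the Tie1-WT range. Its log2 difference of 0.14 did not pass (limma adjusted p = 0.129), and its exons share 124 bases with Mafg. Sirt2, a mainly cytoplasmic sirtuin, averaged 105 ± 7.29 CPM in Tie1-CR and 102 ± 4.55 CPM in Tie1-WT (SD). The mitochondrial sirtuins Sirt3, Sirt4 and Sirt5 were low, between 11.5 and 20.6 CPM on average in Tie1-CR and between 12.0 and 20.3 CPM in Tie1-WT, with log2 differences between -0.07 and 0.02. Sirt6, a nuclear sirtuin, averaged 13.2 ± 1.20 CPM in Tie1-CR and 13.0 ± 0.677 CPM in Tie1-WT (SD).

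Of the 17 demethylases, Kdm6b fell, 0 rose and 16 did not pass, beside 4.05% of all genes called. The median log2 difference was -0.06, with 12 below 0 and 5 above. Kdm1a (LSD1), the flavin-dependent demethylase of the CoREST complex, measured 101, 92.5, 95.7, 95.1 and 101 CPM in Tie1-CR, against 100, 110, 107 and 103 CPM in Tie1-WT. Values overlapped only through Tie1-WT replicate 1, and the log2 difference of -0.11 did not pass (limma adjusted p = 0.185). Kdm2a, an H3K36 demethylase and the most abundant Kdm gene, averaged 158 ± 4.84 CPM in Tie1-CR and 159 ± 6.74 CPM in Tie1-WT (SD), with a 95% interval of -0.11 to 0.09 for the log2 difference. Within the Kdm4 family, which acts on methylated lysine 9 and lysine 36 of histone H3, Kdm4b averaged 133 ± 11.3 CPM in Tie1-CR and 120 ± 8.82 CPM in Tie1-WT, and Kdm4c 50.4 ± 3.12 CPM in Tie1-CR and 55.1 ± 2.48 CPM in Tie1-WT (SD, limma adjusted p = 0.264 and 0.209). The H3K4 demethylases Kdm5a, Kdm5b, Kdm5c and Kdm5d had log2 differences of -0.11, 0.04, 0.07 and -0.06, none past the threshold. Kdm5d is Y-linked and was measured in all 9 libraries, at 24.2 to 37.5 CPM in Tie1-CR and 28.9 to 34.0 CPM in Tie1-WT. Many other transcripts resemble part of it, such as that of Ccdc82 with 93.1% identity over 1850 bases. The level of Kdm5d is therefore uncertain where reads are shared. Kdm3a, a hypoxia-responsive H3K9 demethylase, averaged 125 ± 10.5 CPM in Tie1-CR and 129 ± 7.00 CPM in Tie1-WT (SD).

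Of the 15 methyltransferases 0 passed, beside 4.05% of all genes. Their median log2 difference was 0.01, with 9 above 0 and 6 below. At an unadjusted p under 0.05 (22.3% of all genes) there were 4 of 15, Ehmt2, Setd1b, Setd2 and Kmt2d. Kmt2d (MLL4), which places monomethyl marks at enhancers, measured 296, 333, 304, 324 and 312 CPM in Tie1-CR, against 250, 297, 307 and 276 CPM in Tie1-WT (log2 difference 0.15, limma adjusted p = 0.186). The groups overlapped through Tie1-WT replicates 2 and 3. Setd1b, a promoter H3K4 methyltransferase, averaged 21.5 ± 1.92 CPM in Tie1-CR and 18.6 ± 1.27 CPM in Tie1-WT, while its paralog Setd1a averaged 10.6 ± 1.22 CPM in Tie1-CR and 11.0 ± 0.708 CPM in Tie1-WT (SD). Setd2, which places the trimethyl mark on lysine 36 of histone H3, averaged 68.4 ± 4.73 CPM in Tie1-CR and 75.2 ± 1.96 CPM in Tie1-WT (SD, limma adjusted p = 0.167). The large MLL genes Kmt2a, Kmt2b and Kmt2c had log2 differences of 0.01, 0.05 and 0.04. Kmt2e averaged 194 ± 3.12 CPM in Tie1-CR and 190 ± 4.74 CPM in Tie1-WT (SD), with a 95% interval of -0.06 to 0.11.

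The 7 acetyltransferases held no call, beside 4.05% of all genes. They held no gene with an unadjusted p under 0.05 (limma), beside 22.3% of all genes, and their median log2 difference was -0.05. Their summed level was 400 to 421 CPM in Tie1-CR and 422 to 431 CPM in Tie1-WT, apart by about 1 CPM as first scaled. Trimmed-mean scaling moved the median log2 difference of all genes from -0.027 to -0.002. The sums were not computed under it, so this small gap may depend on the scaling. Kat7 (HBO1), which acetylates histone H3 and H4 near replication origins, averaged 110 ± 3.54 CPM in Tie1-CR and 114 ± 4.49 CPM in Tie1-WT. Kat6a (MOZ) averaged 98.4 ± 7.36 CPM in Tie1-CR and 103 ± 4.35 CPM in Tie1-WT, and its paralog Kat6b 27.8 ± 2.17 CPM in Tie1-CR and 30.3 ± 1.65 CPM in Tie1-WT. Kat2b (PCAF) averaged 46.3 ± 2.42 CPM in Tie1-CR and 49.8 ± 2.26 CPM in Tie1-WT, and its paralog Kat2a (GCN5) 69.5 ± 2.24 CPM in Tie1-CR and 67.5 ± 6.52 CPM in Tie1-WT (SD, limma adjusted p = 0.265 and 0.684). Kat5 (TIP60) and Kat8 (MOF) had log2 differences of 0.05 and -0.02.

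**Figure D3:**
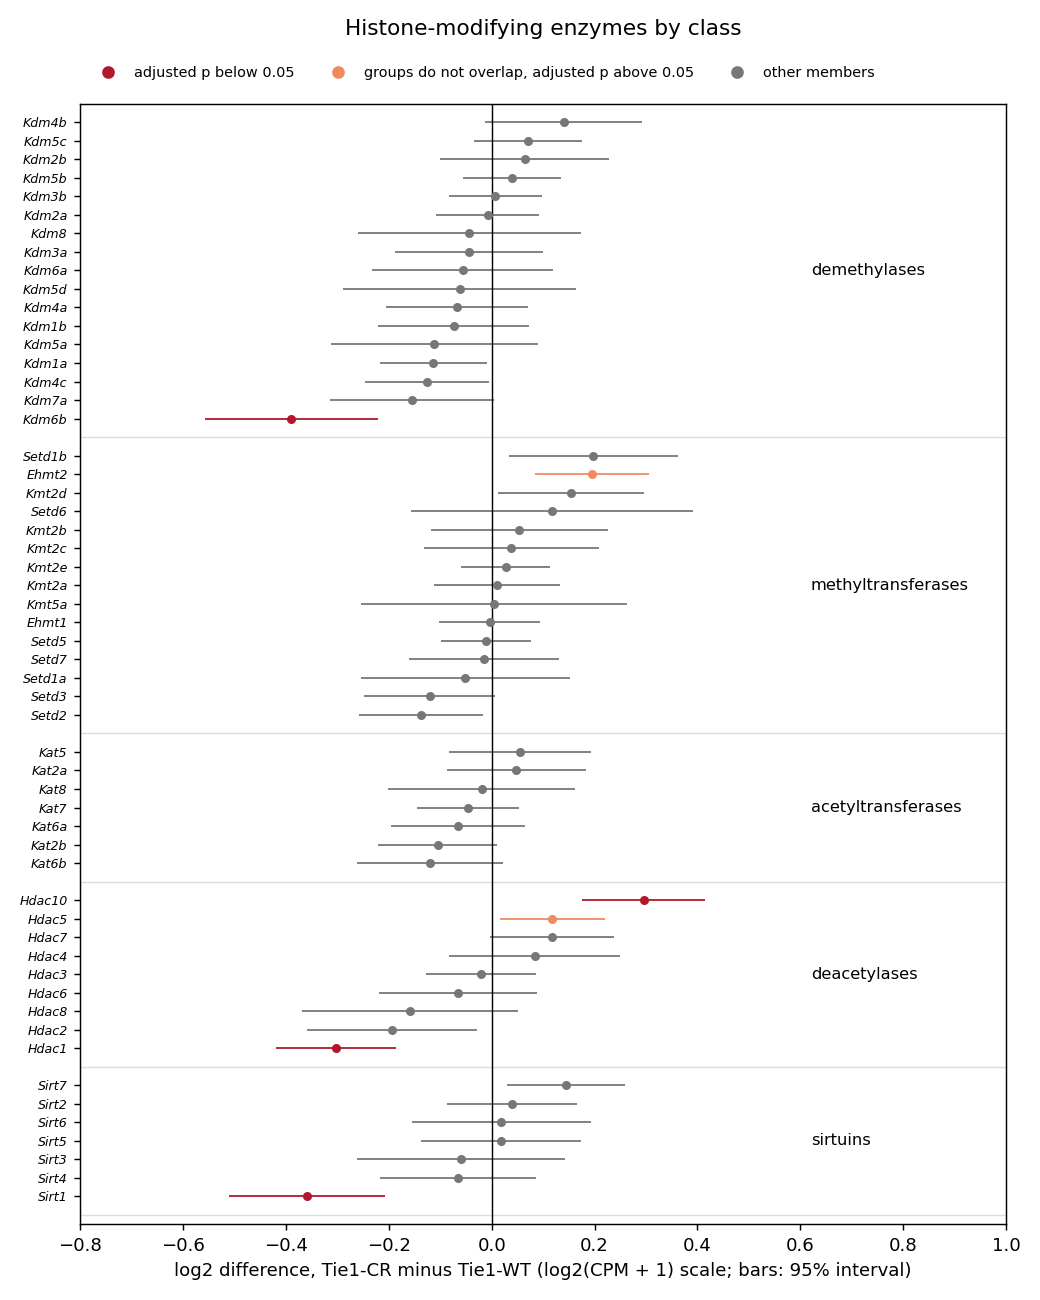
Log2 difference, Tie1-CR minus Tie1-WT, of the 55 members by class, with 95% intervals from the limma fit; red marks adjusted p below 0.05 and orange marks groups that do not overlap without passing. Most intervals include 0, and the 4 red members are Kdm6b, Hdac10, Hdac1 and Sirt1.

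Per kilobase of the longest coding transcript, Hdac7 stood highest at 217 CPM per kb in Tie1-CR and 200.03 CPM per kb in Tie1-WT. Sirt7 followed at 69.0 CPM per kb in Tie1-CR and 62.3 CPM per kb in Tie1-WT, Sirt2 at 49.7 CPM per kb in Tie1-CR and 48.3 CPM per kb in Tie1-WT, and Hdac5 at 47.2 CPM per kb in Tie1-CR and 43.4 CPM per kb in Tie1-WT. Setd1a was lowest, at 1.63 CPM per kb in Tie1-CR and 1.69 CPM per kb in Tie1-WT. The library kit amplifies cDNA, so coverage along long transcripts may be uneven and this order is approximate. Reads of overlapping genes may be split between them, as with 972 exon bases that Kmt2e shares with Srpk2, 3536 that Hdac4 shares with Gm26720, 3523 that Setd1a shares with Gm49388 and 29 that Hdac7 shares with Slc48a1.

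The direction of the members' differences went with the GC content of their transcripts, which the choice of members did not use. Of the 28 members at or above the members' median GC content (51.2%), 18 had log2 differences above 0, with a median of 0.05. Of the 27 below it, 6 did, with a median of -0.06. Across the 55 members Pearson's r was 0.54 and Spearman's rho 0.60 between GC content and log2 difference, and across all 9048 annotated genes they were 0.29 and 0.42. These are descriptions across genes of the same 9 libraries, and genes are not independent replicates. With transcript length, r was 0.03 over the members. Kdm6b stood against the relation, as it is rich in GC (59.6%) and fell. After the GC and length correction the log2 differences of Hdac5, Hdac7 and Kmt2d were 0.02, 0.02 and 0.03, and r over the members was 0.17. The 4 calls held after it, with log2 differences of -0.51 for Kdm6b, -0.31 for Sirt1, -0.28 for Hdac1 and 0.24 for Hdac10 (limma adjusted p = 0.00581, 0.0263, 0.0179 and 0.0256).

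**Figure D4:**
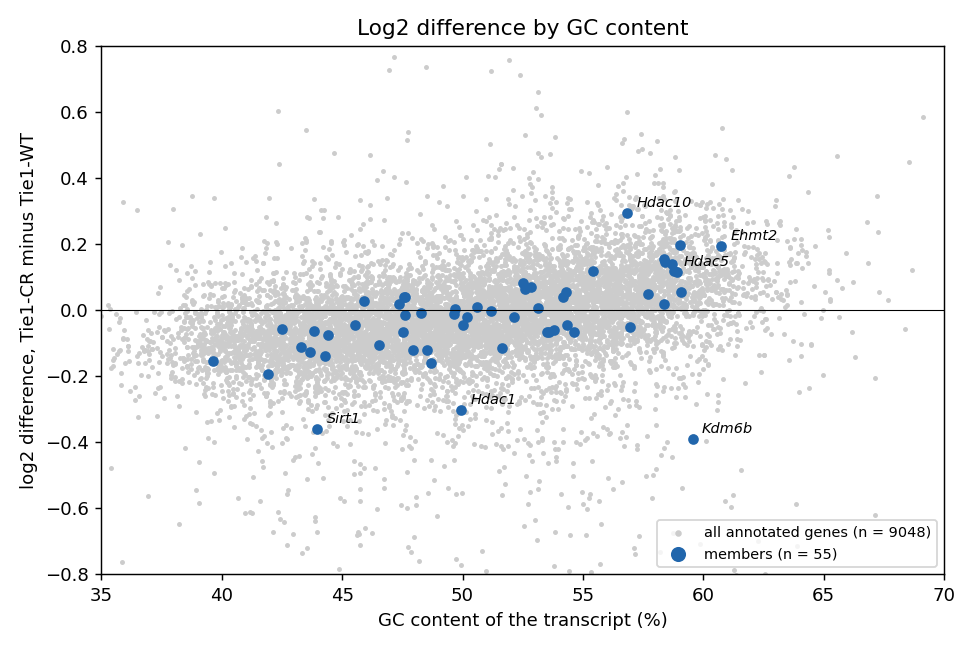
Log2 difference, Tie1-CR minus Tie1-WT, against GC content of the longest coding transcript, with the 55 members in blue and 9048 annotated genes in grey; 73 genes lie outside the axes. Members with more GC tend to lie higher, while Kdm6b, at 59.6% GC, lies at -0.39.

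Genes that work with these enzymes were described from 8 lists of other histone modifiers, complex subunits and readers. Of 134 measured genes 2 rose and 5 fell (5.22%, beside 4.05% of all genes), with a median log2 difference of -0.03, equal to that over all genes at this rounding. By list, the calls were 1 of 20 other methyltransferases, 0 of 11 other acetyltransferases, 1 of 6 other demethylases, 2 of 29 deacetylase corepressor subunits, 0 of 13 COMPASS and MLL subunits, 1 of 28 acetyltransferase complex subunits, 1 of 21 Polycomb subunits and 1 of 6 bromodomain readers.

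Among the subunits of deacetylase complexes, Sap18, part of the Sin3 complex, averaged 38.3 ± 1.20 CPM in Tie1-CR and 55.3 ± 6.19 CPM in Tie1-WT (log2 difference -0.51, limma adjusted p = 0.00485). Ing1, a Sin3 subunit that reads methylated lysine 4 of histone H3, averaged 68.4 ± 3.95 CPM in Tie1-CR and 89.1 ± 8.41 CPM in Tie1-WT (log2 difference -0.37, limma adjusted p = 0.0156). Both fell, as Hdac1 did, while Sin3a averaged 50.5 ± 3.25 CPM in Tie1-CR and 52.2 ± 4.04 CPM in Tie1-WT (SD). These 2 were the only calls among the 29 measured subunits of this list (6.90%, beside 4.05% of all genes). Of the 29, 10 had log2 differences above 0 and 19 below, and a joint change with Hdac1 was not tested. Brd2, which binds acetylated histones, fell to 415 ± 14.4 CPM in Tie1-CR, against 542 ± 26.8 CPM in Tie1-WT (limma adjusted p = 0.00419). Setdb2, an H3K9 methyltransferase, fell to 12.4 ± 0.605 CPM in Tie1-CR, against 17.9 ± 1.09 CPM in Tie1-WT (limma adjusted p = 0.00435). Jmjd6, a hydroxylase of the Jumonji family, averaged 92.8 ± 7.10 CPM in Tie1-CR and 115 ± 11.4 CPM in Tie1-WT (limma adjusted p = 0.0498). Jmjd6 was the only call in the list of other demethylases, whose name need not fit each gene.

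Phf1, a Polycomb accessory subunit, and Mrgbp, a subunit of the Kat5 complex, were the 2 that rose. Phf1 averaged 131 ± 5.91 CPM in Tie1-CR and 108 ± 4.58 CPM in Tie1-WT (limma adjusted p = 0.0128), and Mrgbp 31.1 ± 2.60 CPM in Tie1-CR and 25.3 ± 1.69 CPM in Tie1-WT (limma adjusted p = 0.0440). The calls of Sap18, Brd2 and Setdb2 held with each library left out. That of Ing1 ended without Tie1-WT replicate 1 or 2, and that of Phf1 without Tie1-WT replicate 1. Those of Jmjd6 and Mrgbp ended without any 1 library other than Tie1-WT replicate 4 or Tie1-CR replicate 5. The general acetyltransferases Ep300 and Crebbp, which pair with many transcription factors, did not pass. Ep300 averaged 145 ± 9.21 CPM in Tie1-CR and 144 ± 5.60 CPM in Tie1-WT, and Crebbp 187 ± 4.33 CPM in Tie1-CR and 180 ± 13.9 CPM in Tie1-WT (SD).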

How the data were processed

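RNA from 5 Tie1-CR and 4 Tie1-WT libraries was extracted with a PicoPure kit and sequenced after SMARTer Ultra Low library preparation, per the labels' protocols. The submitters' processing notes name STAR 2.7, GRCm38.p6 and mm10; the counting tool, its annotation, any strand setting and any filter on genes: not given in the sources used here. The authors deposited 1 table named as TPM whose values are CPM: in every library all are whole multiples of 1 step, within 0.01 reads. CPM is not scaled to length. Every gene reaches 10 CPM in some library, so lower genes were not analysed here. The test written for TPM was kept for CPM.

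log2(CPM + 1) values were fitted with limma 3.58.1 in R 4.3.3 (trended empirical Bayes, two-sided) over all 9277 genes with no further filter and adjusted by Benjamini-Hochberg, and the fit was tested on simulated data. Fold changes on this scale understate those of low genes. All pairs of libraries differed by more than counting error, with a chi-square per degree of freedom of at least 21.4. The named genes are members past the threshold or with groups apart, the 2 with the highest CPM and the 2 with the smallest p of each class, and up to 4 called genes of each partner list; others were chosen after their values were seen. Members and lists were chosen with earlier results of these data known. GENCODE vM21 (GRCm38) gave positions, transcript length and GC content for all 55 members and 9048 genes. Near-identical transcripts were sought with BLAST 2.17.0 (at least 500 bases and 90% identity). Promoters came from RefSeq. Alternatives covered the pseudocount, a filter, scaling, variance models, a GC and length correction, the threshold, a replicate block and each library left out. Plots used matplotlib 3.10.9.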

Additional observations from a re-analysis of the deposited data

Results flagged for a closer look

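In 2 of the 110 groups checked (55 members in each genotype), 1 library stood far from the rest, where chance gives about 1 in 20. Hdac6 measured 35.5 CPM in Tie1-WT replicate 3, against 29.1 to 30.1 CPM in the other Tie1-WT libraries. Kmt2e measured 199 CPM in Tie1-CR replicate 5, against 192 to 193 CPM in the other Tie1-CR libraries, a small step beside its level.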

How the results depend on the processing

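With each library left out, the number of members higher ran from 0 to 1 and lower from 0 to 3. By class the deacetylases higher and lower each ran from 0 to 1, as did the demethylases lower and the sirtuins lower. Median log2 differences ran from -0.02 to 0.00 for all members, from -0.07 to -0.03 for acetyltransferases, -0.04 to 0.01 for deacetylases, -0.08 to -0.01 for demethylases, 0.00 to 0.03 for methyltransferases and -0.01 to 0.03 for sirtuins. Adjusted p reached 0.0653 for Hdac1, 0.0656 for Hdac10, 0.0713 for Kdm6b and 0.0795 for Sirt1 without Tie1-WT replicate 1, and 0.0572, 0.0565 and 0.0659 for Hdac10, Kdm6b and Sirt1 without Tie1-WT replicate 2, with no change of direction. Over all genes, 6 to 110 were higher and 54 to 245 lower, with 6 and 54 in the fit without Tie1-WT replicate 1.

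Members higher numbered 2, and methyltransferases higher 1, with trimmed-mean scaling, quantile normalization, library weights or a threshold of 0.10, in each case through Ehmt2. At the threshold of 0.10, 5 of 55 members were called, beside 9.77% of all genes (314 higher and 592 lower). With a filter of 20 CPM the median of the deacetylases was 0.0313. Over the 12 alternatives that left out no single library, medians ran from -0.0259 to 0.0101 for all members, -0.0211 to 0.0313 for deacetylases, -0.005 to 0.0392 for methyltransferases and -0.049 to 0.0529 for sirtuins, crossing 0, while those of acetyltransferases and demethylases stayed below it. Kdm2a, near 0 throughout, turned to 0.0177 with trimmed-mean scaling, 0.0031 with quantile normalization and 0.0101 with library weights, and ran from -0.0258 to 0.0124 over the fits that left out 1 library, above 0 (0.0069, 0.0124 and 0.0093) in those without Tie1-WT replicate 2 or 3 and without Tie1-CR replicate 4. Jmjd6 lost its call with a pseudocount of 0.1, trimmed-mean scaling or quantile normalization (adjusted p = 0.0502, 0.0701 and 0.0610), and Phf1 kept its call at 0.19 after the GC and length correction (adjusted p = 0.0396). The causes were not tested. The median of all genes was -0.03 as first scaled and 0.00 with trimmed-mean scaling and with quantile normalization, and the split of calls over all genes from 119 higher and 257 lower to 182 and 190 with trimmed-mean scaling, 183 and 190 with quantile normalization, 62 and 234 with the GC and length correction, and 245 and 416 with library weights.

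The replicate numbers shared by the genotypes are not said to pair libraries, and deviations of same-numbered libraries correlated at -0.14, 0.00, -0.06 and 0.19, with 1 of 4 Tie1-CR libraries closest to its own number. With a replicate block over the 8 libraries numbered 1 to 4, members higher numbered 0, deacetylases higher 0 and deacetylases lower 0 (adjusted p = 0.0576 for Hdac1 and 0.0823 for Hdac10), and 2 members, Kdm6b and Sirt1, were called. Jmjd6, Mrgbp and Phf1 also lost their calls under the block (adjusted p = 0.0616, 0.0566 and 0.0839). Over all genes, 37 were higher and 145 lower under the block (1.96%). The same libraries without the block, a setting chosen after seeing the data, gave 4 members called, beside 3.05% of all genes. The planned tests on whole reads with count models were not run. Members near 10 CPM have the least precision.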
